A study of Saccharomyces cerevisiae with 12 samples.

Results

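Transcripts of 35 nuclear genes for the respiratory chain and ATP synthase of Saccharomyces cerevisiae were followed during exposure to concanamycin A. The genes were found by common name in a table of 6216 features and grouped by the complex that holds their product. There were 9 genes of complex III, 7 of complex IV, 15 of the ATP synthase, with its inhibitor INH1 among them, and 4 dehydrogenases (NDI1, NDE1, NDE2 and CYB2). The cells were wild type BY4741, a haploid laboratory strain, grown exponentially in YPD, a rich glucose medium. The 4 groups had 0, 1, 3 or 6 h in concanamycin A, a macrolide that inhibits the vacuolar proton pump (V-ATPase), at 500 nM, with 3 RNA sequencing libraries in each. All groups shared strain and medium, and no untreated culture of a later time was analysed here, so the hours of culture and of exposure cannot be told apart. The labels do not state that the libraries of a time were separate cultures, so p-values cover only the spread among these samples, and that spread may be technical.

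Complex III passes electrons from ubiquinol to cytochrome c and complex IV passes them to oxygen, and the ATP synthase uses the proton gradient that both build. In S. cerevisiae single-protein NADH dehydrogenases feed ubiquinone in place of a proton-pumping complex I: Ndi1 faces the matrix, Nde1 and Nde2 face the outside of the inner membrane, and Cyb2 passes electrons from lactate to cytochrome c. On glucose this yeast mostly ferments and keeps many of these genes at a reduced level, and the HAP complex, whose activating subunit Hap4 is scarce on glucose, binds sequences that hold CCAAT upstream of many of them.

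Library totals were 8508894 to 11008709 counts, and the 35 genes took 0.298% to 0.381% of them. None of the 35 had a near-identical copy or overlapped another annotated gene. LEU2 and URA3, deleted in BY4741, had at most 3 counts in a library and MET17 had 0, whereas HIS3, in which the strain carries an internal deletion, had 363 to 860. The mating type a receptor gene STE2 had 39818 counts over the 12 libraries, against 656 for its alpha counterpart STE3. The library 0 h replicate 3 stood apart: 31 of the 35 genes lay below the mean of the other 2 libraries of 0 h with a median log2 difference of -0.16, while the median over all 5615 tested features was 0.01. In that library CYB2 differed from the other 2 by -1.26, NDE2 by -0.91, INH1 by -0.87, NDI1 by -0.77, CYT1 by -0.76 and the regulator HAP4 by -1.21 on the log2 scale. For the genes it moved most, values without it stand beside the results.

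Stretches upstream of 9 members are shown because the longer form of the HAP sequence, ACCAATNA, stood before members that fell, members that rose and members that did not pass the test. Each is 40 bases read 5′ to 3′ along the coding strand of build R64, and capitals mark the match to ACCAATNA, or to its reverse complement where the match was on the other strand.
QCR7: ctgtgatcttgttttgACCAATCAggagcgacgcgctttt
COX6: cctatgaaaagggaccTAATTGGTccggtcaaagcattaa
COX8: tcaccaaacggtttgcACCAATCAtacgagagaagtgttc
NDI1: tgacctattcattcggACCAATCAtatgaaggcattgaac
COX12: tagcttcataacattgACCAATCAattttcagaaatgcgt
COX13: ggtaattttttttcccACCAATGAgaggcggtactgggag
ATP7: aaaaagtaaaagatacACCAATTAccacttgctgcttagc
ATP14: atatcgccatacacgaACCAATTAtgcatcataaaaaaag
ATP15: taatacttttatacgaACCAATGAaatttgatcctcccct
The first 4 lie upstream of genes that were lower at 3 and 6 h than at 0 h, the next 3 upstream of genes with no call against 0 h, and the last 2 upstream of genes that were higher at 3 and 6 h. Those of QCR7 (chrIV:1496707-1496746), COX8 (chrXII:910144-910183), NDI1 (chrXIII:30012-30051), COX12 (chrXII:225355-225394), ATP7 (chrXI:408144-408183) and ATP14 (chrXII:722548-722587) are on the minus strand. Those of COX6 (chrVIII:209472-209511), COX13 (chrVII:144579-144618) and ATP15 (chrXVI:29929-29968) are on the plus strand. The COX6 stretch lies inside the annotated gene YHR050W-A and the other stretches lie between annotated genes.

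The search covered the window from 450 to 101 bases before the start codon, on both strands. ACCAATNA, which holds CCAAT, was found before 17 of the 35 members (48.6%) and before 357 of 5763 nuclear open reading frames (6.19%). It stood before 3 of 9 complex III genes, 4 of 7 complex IV genes, 8 of 15 ATP synthase genes and 2 of 4 dehydrogenase genes. Of the members lower at 6 h than at 0 h, 8 of 14 had it, as did 7 of the 18 with no call and 2 of the 3 that were higher. The shorter CCAAT was found before 32 members (91.4%) and 50% of all frames. The members without it in this window were CYT1 and COX4, lower at 3 and 6 h, and NDE2, higher at 6 h. TANCGG, a form bound by Hap1, was found before 14 members (40%) and 27.6% of all frames, and before 5 of 9 complex III genes against 2 of 15 ATP synthase genes. ATTGTT, bound by Rox1, was found before 12 members (34.3%) and 35.8% of all frames, and CCCCGC, a short form of the glucose repressor Mig1 sequence, before 4 members (11.4%) and 4.56%. A match of letters is a description and not a binding site.

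Relative to the typical feature, 6 of 9 complex III genes and 3 of 7 complex IV genes fell at 3 h, and 5 and 4 of them at 6 h. Of the 15 ATP synthase genes, 10 had no call against 0 h at 3 h and 9 had none at 6 h, and NDE2 rose at 6 h. Scaled to total counts, the complex III calls at 3 h were not made. Of the 35 members, 4 were higher and 5 lower at 1 h than at 0 h, where 24.5% of all tested features were higher and 23.4% lower. At 3 h, 2 were higher and 13 lower (37.1%), against 26.3% and 24.5% of all features. At 6 h, 3 were higher and 14 lower (40.0%), against 33.0% and 28.9% of all features. The F test over the 4 times called 25 of the 35, where it called 78.5% of all features, so the members were called no more often than features at large. Their median log2 fold changes against 0 h were -0.02 at 1 h, -0.17 at 3 h and -0.15 at 6 h, beside 0.00, 0.02 and 0.05 for all features. Fewer cells with a transcript and less transcript per cell cannot be told apart in these bulk samples. The 3 comparisons share the 0 h libraries, so they are not independent of one another.

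The scaling set the direction of the small changes, and changes are reported relative to the typical feature unless total counts are named. Scaled to total counts, without trimmed-mean (TMM) factors, the median of all features moved by 0.21, 0.35 and 0.34 at 1, 3 and 6 h. Under that scaling 17, 17 and 16 members were higher and 1, 2 and 6 lower than at 0 h. Of all 5615 features, 2575, 3576 and 3278 were higher and 602, 498 and 809 lower. Higher calls were 94.4%, 89.5% and 72.7% of the members' calls, in place of 44.4%, 13.3% and 17.6%. Of the calls over all features they were 81.1%, 87.8% and 80.2%, in place of 51.1%, 51.7% and 53.4%. Features at large thus shifted the same way under that scaling. For complex III, 2 genes were then higher at 3 h in place of 6 lower, and ATP2 at 3 h was called higher (0.16) in place of lower. Under both scalings COR1, QCR7, CYT1, COX4, COX6 and COX8 were lower at 6 h than at 0 h, and ATP14, ATP15 and NDE2 were higher. Without 0 h replicate 3 the members' lower calls were 9 at 1 h, 21 at 3 h and 18 at 6 h. In that fit 1649, 1706 and 1826 of 5642 features were lower, against 1315, 1377 and 1620 of 5615 with all libraries. Without 0 h replicate 1 the members' lower calls at 1 h were 2. Of the calls at 6 h, 13 of the 14 lower and 2 of the 3 higher held without any one of the 12 libraries, and the exceptions were TIM11 and ATP14.

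**Figure D1:**
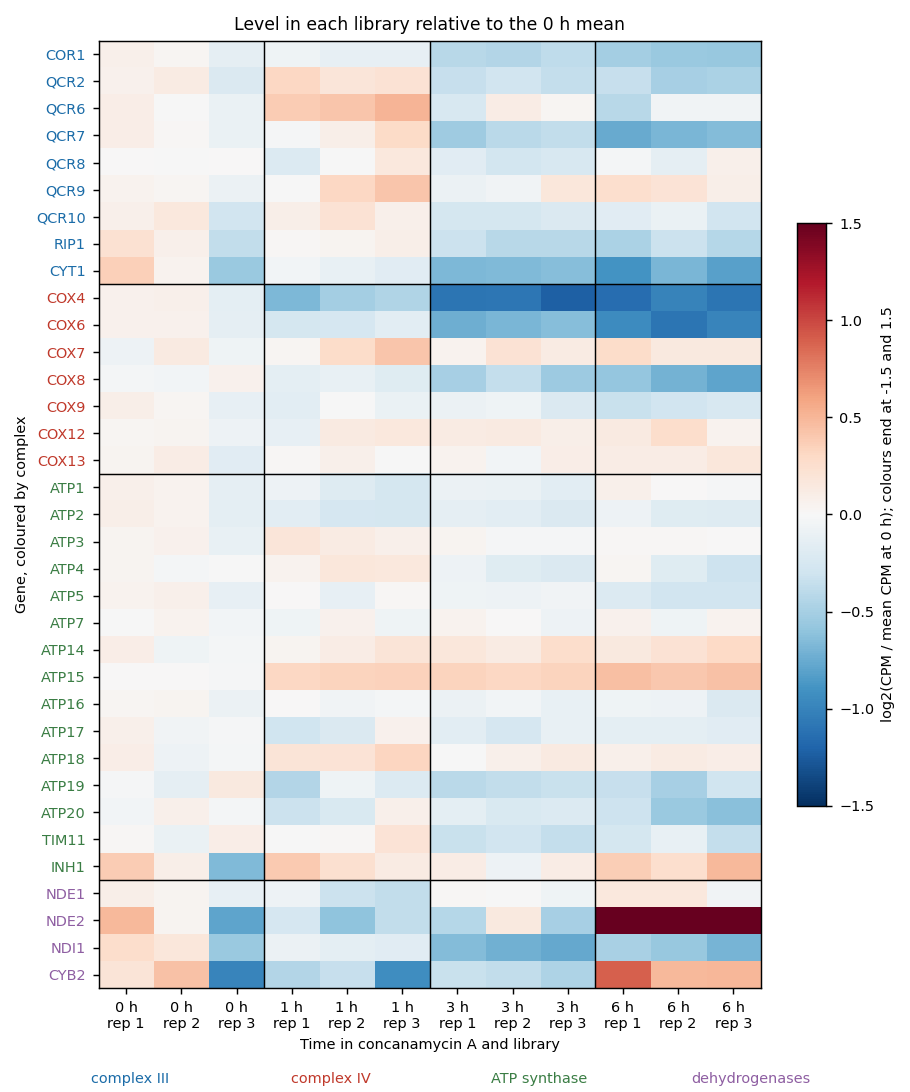
Each row is a member, coloured by complex, each column is a library, and the colour gives log2 of its CPM (counts scaled to a common library size) over the mean CPM of the 3 libraries of 0 h. COX4, COX6, QCR7 and CYT1 are blue in the 3 libraries of 3 h and of 6 h, ATP15 is red in the 9 libraries after 0 h, and 0 h replicate 3 is the bluest column of 0 h.

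Complex III, the cytochrome bc1 complex, held 6 genes that were lower at 3 h than at 0 h (COR1, QCR2, QCR7, QCR8, RIP1 and CYT1) and 5 at 6 h, the same without QCR8. At 1 h QCR2 (log2 fold change 0.23 ± 0.08, SE, adjusted p = 0.0289) and QCR6 (0.44 ± 0.10, adjusted p = 0.00393) were higher. The QCR2 call ended without 0 h replicate 3 (0.10) and without 1 h replicate 1 (0.19) or 3 (0.24), and without 0 h replicate 3 COR1 (-0.20) and CYT1 (-0.37) were called lower at 1 h. The medians of the 9 genes were 0.12, -0.33 and -0.41 at 1, 3 and 6 h, and under total counts 0.33, 0.00 and -0.12, with no direction left at 3 h.

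CYT1 (YOR065W, chrXV:447439-448368, plus strand) encodes cytochrome c1, the heme protein that hands electrons to cytochrome c. It had 74.1, 59.8 and 39.3 CPM at 0 h, 55.9, 53.6 and 51.3 CPM at 1 h, 36.3, 36.6 and 37.1 CPM at 3 h, and 30.9, 35.9 and 32.9 CPM at 6 h. The libraries of 3 and 6 h all lay below those of 0 h, the lowest of which was 0 h replicate 3. The log2 fold change was -0.66 ± 0.17 at 3 h (adjusted p = 0.00636) and -0.80 ± 0.17 at 6 h (adjusted p = 0.00138). The changes at 3 and 6 h were -0.91 and -1.05 without 0 h replicate 3, and -0.44 and -0.58 without 0 h replicate 1, and all 4 were called.

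QCR7 (YDR529C, chrIV:1496165-1496548, minus strand), a small subunit on the matrix side, had 122, 115 and 106 CPM at 0 h, 113, 121 and 139 CPM at 1 h, 78.9, 86.0 and 88.1 CPM at 3 h, and 67.5, 70.8 and 72.9 CPM at 6 h. The libraries of 1 h overlapped those of 0 h, and those of 3 and 6 h lay below both. It fell by 0.44 ± 0.08 at 3 h (log2 fold change -0.44, adjusted p = 5.2e-04) and by 0.70 ± 0.08 at 6 h (-0.70, adjusted p = 5.7e-06), and it was lower at 6 h than at 3 h (-0.26 ± 0.08, adjusted p = 0.0198).

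The core proteins are encoded by COR1, which fell by 0.41 ± 0.06 at 3 h and 0.54 ± 0.06 at 6 h on the log2 scale (adjusted p = 6.1e-05 and 2.5e-06), and QCR2, with -0.33 ± 0.08 and -0.44 ± 0.08 (adjusted p = 0.00411 and 3.5e-04). RIP1, the Rieske iron-sulfur protein, had -0.39 ± 0.12 and -0.41 ± 0.12 (adjusted p = 0.0142 and 0.00760), and its call at 3 h ended without 0 h replicate 1 (-0.25). QCR8 passed the test at 3 h alone (-0.23 ± 0.09, adjusted p = 0.0478), a call that ended without any one of several libraries, and had 49.8, 46.4 and 53.6 CPM at 6 h against 51.1, 50.7 and 51.1 CPM at 0 h. The remaining small subunits QCR6, QCR9 and QCR10 did not pass the test at 3 or 6 h, with fold changes from -0.25 to 0.18.

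Complex IV, cytochrome c oxidase, had members that fell relative to the typical feature and members that stayed near their 0 h values in the same libraries. COX4 and COX6 were lower at 1, 3 and 6 h than at 0 h, COX8 at 3 and 6 h and COX9 at 6 h, while COX7, COX12 and COX13 passed no test. Under total counts these last were called higher at 1, 3 and 6 h: COX7 by 0.46, 0.47 and 0.49, COX12 by 0.27, 0.45 and 0.45, and COX13 by 0.24, 0.37 and 0.43. The medians of the 7 genes were -0.08, -0.12 and -0.29 at 1, 3 and 6 h, and under total counts 0.13, 0.21 and 0.01, with the sign turned. The complex also has a core made in the mitochondrion, given with the partner genes.

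COX4 (YGL187C, chrVII:149704-150171, minus strand), a zinc-binding subunit, had 43.2, 43.7 and 37.4 CPM at 0 h, 26.0, 29.1 and 30.2 CPM at 1 h, 19.3, 19.6 and 17.7 CPM at 3 h, and 18.8, 20.6 and 19.4 CPM at 6 h. Every later library lay below every library of 0 h, and those of 3 and 6 h overlapped. The log2 fold changes were -0.54 ± 0.09 at 1 h (adjusted p = 1.9e-04), -1.14 ± 0.09 at 3 h (adjusted p = 2.8e-07) and -1.08 ± 0.09 at 6 h (adjusted p = 2.3e-07). COX4 was the only member lower at all 3 times under both scalings.

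COX6 (YHR051W, chrVIII:209705-210151, plus strand), a matrix-side subunit, had 57.0, 56.7 and 49.3 CPM at 0 h, 45.2, 45.7 and 48.5 CPM at 1 h, 32.6, 33.7 and 35 CPM at 3 h, and 28.2, 25.4 and 27.3 CPM at 6 h. The 4 times did not overlap and were ordered by hour. The log2 fold changes were -0.23 ± 0.07 (adjusted p = 0.0208), -0.69 ± 0.07 (adjusted p = 6.7e-06) and -1.01 ± 0.08 (adjusted p = 9.2e-08). The call at 1 h ended without any one of 0 h replicate 1, 1 h replicate 1 or 1 h replicate 2, with changes from -0.22 to -0.19. The 1 h change was also not called in the fit of the 2 times alone (-0.22, adjusted p = 0.0660). Under total counts it was -0.02 (adjusted p = 0.865).

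COX8 fell by 0.46 ± 0.07 at 3 h and 0.69 ± 0.08 at 6 h on the log2 scale (adjusted p = 2.0e-04 and 3.9e-06), and COX9, another small membrane subunit, by 0.29 ± 0.08 at 6 h (adjusted p = 0.00496). Under total counts COX8 at 3 h (-0.13) and COX9 at 6 h (0.01) were not called. COX13, a regulatory subunit, had 97.1, 96.5 and 101 CPM at 6 h and 92.3, 96.5 and 79.9 CPM at 0 h, and these libraries overlapped. Within a library the ratio of COX4 to COX13, both per kb of coding sequence, does not depend on scaling. It was between 0.377 and 0.390 at 0 h, between 0.240 and 0.283 at 1 h, between 0.153 and 0.187 at 3 h and between 0.160 and 0.178 at 6 h. This pair was chosen after its values were seen, and its ratios show unequal change, not which gene moved.

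**Figure D2:**
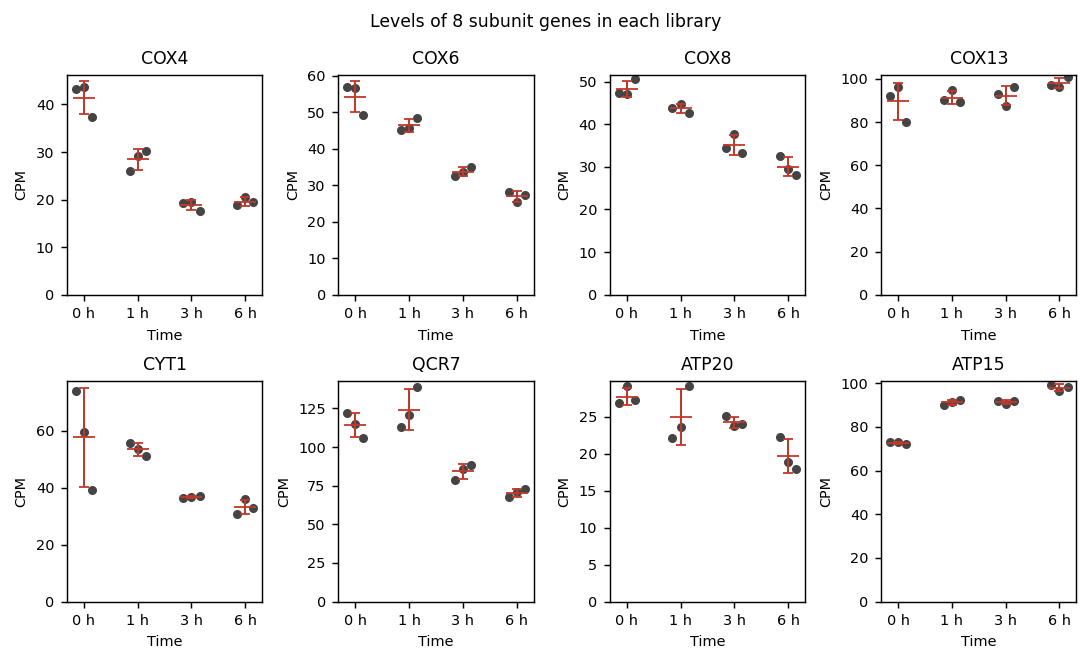
Points give the CPM of a gene in each of the 3 libraries of a time, and the red mark with bars gives their mean and SD. COX4 and COX6 lie below their 0 h values from 1 h on, COX13 stays at 79.9 to 101 CPM across 6 and 0 h, CYT1 has 1 low library at 0 h (39.3 CPM), and ATP15 lies above 0 h in every later library.

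Among the 15 ATP synthase genes, 2 were higher and 2 lower at 1 h than at 0 h, 2 higher and 3 lower at 3 h, and 2 higher and 4 lower at 6 h. The lower shares were 13.3%, 20.0% and 26.7%, against 23.4%, 24.5% and 28.9% of all features. The higher share was 13.3% at each time, against 24.5%, 26.3% and 33.0%. These genes were thus called no more often than features at large. The F test over the 4 times called 10 of the 15, where it called 78.5% of all features. The 4 lower at 6 h were ATP5, ATP19, ATP20 and TIM11, and none of these was called at 6 h under total counts. Of the genes for the catalytic head, ATP1 (0.02 ± 0.06) and ATP3 (0.01 ± 0.05) had no call at 6 h. ATP2, the beta subunit, missed the threshold at 6 h (-0.15 ± 0.06, adjusted p = 0.0548). It was called lower there by DESeq2 (-0.17, adjusted p = 0.0244), without 0 h replicate 3 (-0.26, adjusted p = 6.8e-04) and without 6 h replicate 1 (-0.19, adjusted p = 0.0301). ATP2 passed the test at 1 h (-0.23 ± 0.06, adjusted p = 0.00986) and 3 h (-0.17 ± 0.06, adjusted p = 0.0413), and ATP1 at 1 h alone (-0.18 ± 0.06, adjusted p = 0.0329). The ATP1 call and the ATP2 call at 3 h ended without 0 h replicate 1, among others, and under total counts neither was called at 1 h. Without 0 h replicate 3, 1 of the 15 was higher and 8 lower at 3 h, and 2 were higher and 7 lower at 6 h. In that fit 1475 of 5642 features were higher and 1706 lower at 3 h, and 1760 higher and 1826 lower at 6 h. The medians of the 15 genes were -0.02, -0.08 and -0.11, and under total counts 0.19, 0.26 and 0.18. Then 9, 10 and 8 of the genes were higher at 1, 3 and 6 h, as were 2575, 3576 and 3278 of all 5615 features.

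ATP15 (YPL271W, chrXVI:30079-30267, plus strand) encodes the epsilon subunit of the central stalk. It had 73.2, 72.9 and 72.1 CPM at 0 h, 90.1, 91.3 and 92.3 CPM at 1 h, 91.9, 90.4 and 91.8 CPM at 3 h, and 99.4, 96.4 and 98.2 CPM at 6 h. All later libraries lay above 0 h, those of 1 and 3 h overlapped, and those of 6 h were highest. It rose by 0.33 ± 0.04 (adjusted p = 5.3e-05), 0.33 ± 0.04 (adjusted p = 4.9e-05) and 0.43 ± 0.04 (adjusted p = 2.2e-06) on the log2 scale. Under total counts the changes were 0.54, 0.66 and 0.73, all called. ATP14, subunit h of the peripheral stalk, was higher at 3 h (0.18 ± 0.07, adjusted p = 0.0359) and 6 h (0.22 ± 0.07, adjusted p = 0.0102), and these calls ended without some single libraries. ATP18, the membrane subunit i/j, was higher at 1 h alone (0.24 ± 0.06, adjusted p = 0.00559), and without 0 h replicate 2 it was not called (0.18).

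ATP20 (YPR020W, chrXVI:599870-600217, plus strand), subunit g, which takes part in dimer formation, had 26.9, 29.1 and 27.2 CPM at 0 h, 22.1, 23.6 and 29.2 CPM at 1 h, 25.1, 23.7 and 24.0 CPM at 3 h, and 22.3, 18.9 and 17.9 CPM at 6 h. Libraries of 1 h overlapped those of 0 h, and the 6 h libraries lay below all of 0 h and of 3 h. The log2 fold change at 6 h was -0.49 ± 0.11 (adjusted p = 0.00195), and it was not called under total counts (-0.20, adjusted p = 0.112). TIM11, subunit e and the partner of subunit g in the dimer, was lower at 3 h (-0.33 ± 0.10, adjusted p = 0.0119) and 6 h (-0.24 ± 0.10, adjusted p = 0.0454), and ATP19, subunit k, had -0.37 ± 0.10 and -0.38 ± 0.10 (adjusted p = 0.00980 and 0.00604). ATP5, the oligomycin sensitivity conferring protein of the stalk, was lower at 6 h alone (-0.26 ± 0.06, adjusted p = 0.00201). The ratio of ATP20 to ATP15 per kb, a pair chosen after its values were seen, was between 0.200 and 0.217 at 0 h, between 0.133 and 0.172 at 1 h, between 0.142 and 0.148 at 3 h and between 0.0988 and 0.122 at 6 h.

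INH1 (YDL181W, chrIV:135179-135436, plus strand) encodes the protein that blocks ATP hydrolysis by the enzyme. It had 16.8, 13.7 and 8.18 CPM at 0 h, 16.9, 15.2 and 14.1 CPM at 1 h, 13.9, 12.2 and 13.9 CPM at 3 h, and 16.6, 15.4 and 18.1 CPM at 6 h. The 0 h libraries overlapped every later time, and 0 h replicate 3 was the lowest of the 12. No comparison with 0 h passed the test (6 h: 0.36 ± 0.19, adjusted p = 0.118). The result at 6 h rested on the libraries of 0 h and on the scaling: INH1 was called higher without 0 h replicate 1 (0.61, adjusted p = 0.0119) and under total counts (0.65, adjusted p = 0.00944), and it differed by 0.08 without 0 h replicate 3 (adjusted p = 0.604). Without 0 h replicate 1 it was also called higher at 1 h (0.49, adjusted p = 0.0452). Of the related factors, STF1 was higher at 6 h (0.80 ± 0.24, adjusted p = 0.0128, and 0.48 without 0 h replicate 3, still called), and STF2, which differed by -0.11 ± 0.24 at 6 h, was lower at 1 h (-0.81 ± 0.24, adjusted p = 0.0196) and 3 h (-1.01 ± 0.24, adjusted p = 0.00641). The STF2 call at 1 h ended without 0 h replicate 1 (-0.67), 0 h replicate 2 (-0.72) or 1 h replicate 3 (-0.78), and under total counts (-0.60).

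**Figure D3:**
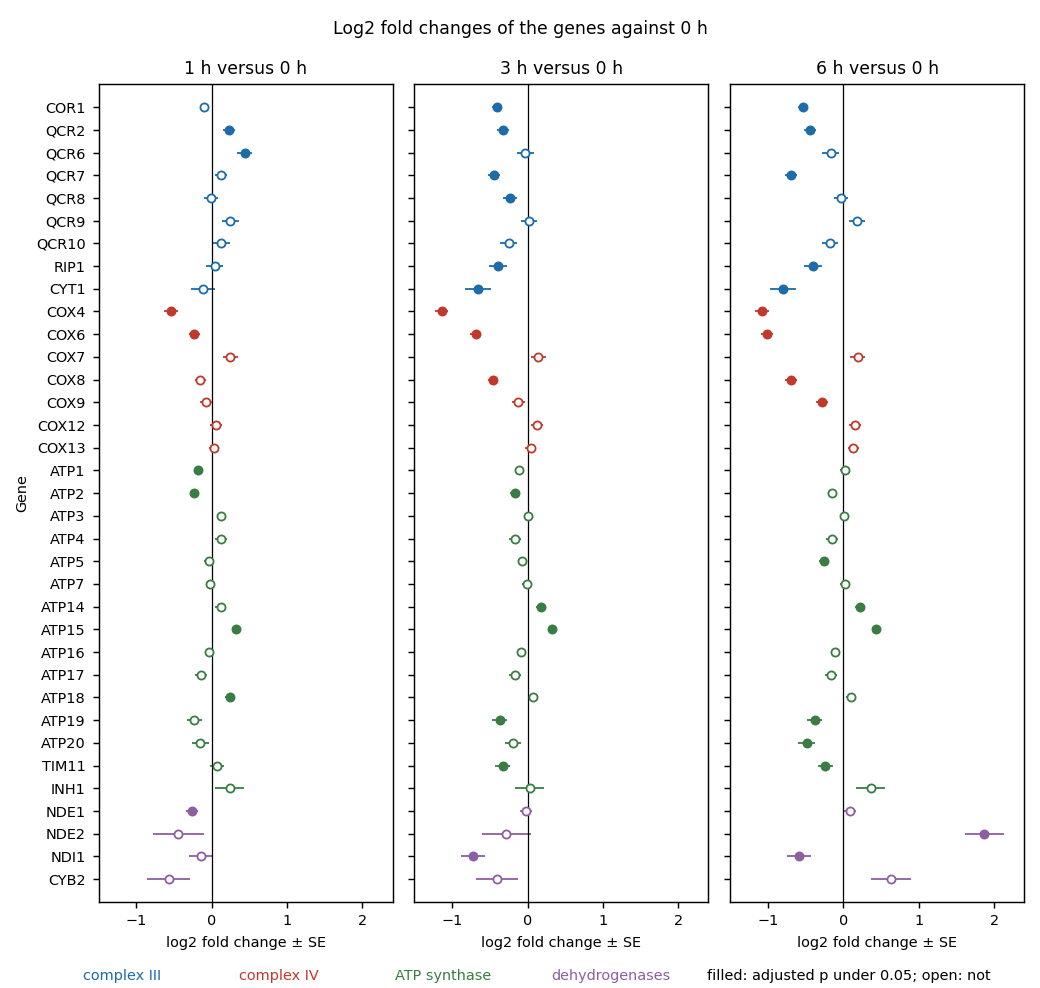
Points give the log2 fold change of each member against 0 h with its SE, at 1, 3 and 6 h, coloured by complex, and filled where the adjusted p was under 0.05. Complex III and complex IV points spread to the left at 3 and 6 h (COX4 -1.14 at 3 h), the ATP synthase points stay between -0.49 and 0.43, and NDE2 lies at 1.87 at 6 h.

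The balance between complexes, as the ratio of their summed counts in a library, does not depend on scaling. A sum weighs genes by their counts, so these ratios mostly follow the most abundant genes. At 0 h ATP2 (mean 783 CPM) and ATP1 (501 CPM) were the largest parts of the ATP synthase sum (2478 CPM). COR1 (178 CPM) and QCR2 (146 CPM) were the largest parts of the complex III sum (749 CPM). The ATP synthase genes had 3.20, 3.26 and 3.50 times the counts of the complex III genes at 0 h, 3.03, 2.94 and 2.81 in the libraries of 1 h, 4.10, 3.86 and 3.77 in the libraries of 3 h, and 4.44, 4.14 and 4.13 in the libraries of 6 h. The ratio was lower in every library of 1 h than in those of 0 h, and higher in every library of 3 and 6 h. Over complex IV it was 7.16, 6.85 and 7.02 in the libraries of 0 h, 7.55, 6.80 and 6.85 in the libraries of 1 h, 7.89, 7.64 and 7.64 in the libraries of 3 h, and 8.35, 7.96 and 7.97 in the libraries of 6 h. Here 1 h overlapped 0 h, and 3 and 6 h lay above both.

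The summed level of complex III was 749 ± 77.2 CPM at 0 h (SD, n = 3), 808 ± 24.0 at 1 h, 598 ± 15.5 at 3 h and 564 ± 4.49 at 6 h. That of complex IV ranged over 330 to 369, 318 to 345, 301 to 306 and 293 to 297 CPM at these times, and that of the ATP synthase was 2478 ± 146, 2364 ± 32.1, 2337 ± 41.3 and 2392 ± 79.5 CPM. The later ATP synthase sums, at most 2483 CPM, lay below those of 0 h replicates 1 and 2 (2593 and 2528) and overlapped that of 0 h replicate 3 (2314). The complex III sums of 3 and 6 h lay below all 3 of 0 h. No test was run on these sums, since the members were chosen with results known.

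**Figure D4:**
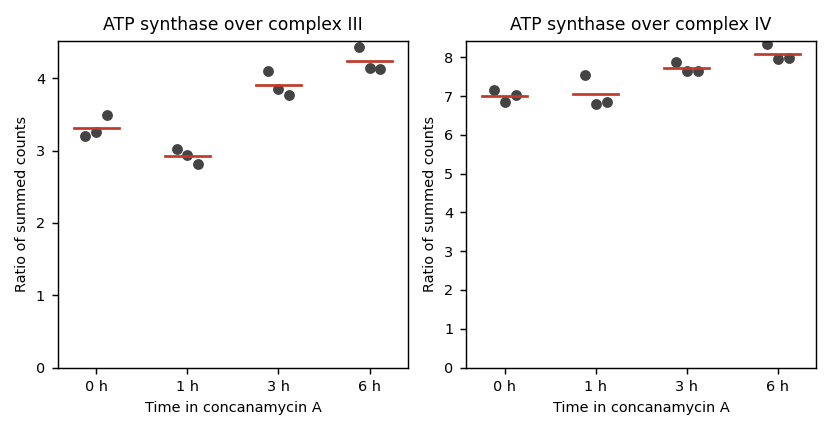
Each point is a library and the red line is the mean of the 3 libraries of a time, and the vertical axis gives the ratio of summed counts. ATP synthase over complex III is between 2.81 and 3.03 at 1 h and between 4.13 and 4.44 at 6 h, and over complex IV between 7.96 and 8.35 at 6 h.

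Per kb of coding sequence, ATP15 had the highest mean level of the 35 members at 6 h (519 CPM per kb), before ATP2 (460) and ATP18 (456). At 0 h ATP2 (510) stood first, before ATP18 (426) and ATP15 (385). In complex III the highest at 6 h was QCR9 (234 CPM per kb) and at 0 h QCR7 (298), while CYT1 was the lowest at both times (35.7 at 6 h and 62.1 at 0 h). In complex IV COX13 led at 6 h (252) and COX9 at 0 h (260), with COX4 the lowest (41.9 at 6 h and 88.5 at 0 h). NDE1 (110 CPM per kb at 0 h) stood above NDI1 (49.6), and CYB2 (3.92) and NDE2 (0.990) were far lower.

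The 4 dehydrogenase genes moved in different directions. NDI1 fell at 3 and 6 h, NDE2 rose at 6 h from a low level, NDE1 was lower at 1 h alone, and CYB2 was higher at 6 h than at 3 h. Of the 4 groups of members the dehydrogenases differed most in 0 h replicate 3, with a median of -0.84 on the log2 scale against the other 2 libraries of 0 h.

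NDI1 (YML120C, chrXIII:28266-29807, minus strand) had 91.7, 85.8 and 52.0 CPM at 0 h, 71.7, 69.3 and 67.9 CPM at 1 h, 48.8, 46.5 and 45.1 CPM at 3 h, and 54.8, 51.5 and 47.1 CPM at 6 h. The libraries of 3 h lay below all of 0 h, and those of 6 h overlapped 0 h through 0 h replicate 3. The log2 fold change was -0.72 ± 0.16 at 3 h (adjusted p = 0.00322) and -0.59 ± 0.16 at 6 h (adjusted p = 0.00742), -0.96 and -0.84 without 0 h replicate 3, where NDI1 was also called lower at 1 h (-0.39), and under total counts -0.39 and -0.29, neither called. The ratio of NDI1 to NDE1 per kb, chosen after its values were seen, was between 0.336 and 0.512 at 0 h, between 0.450 and 0.522 at 1 h, between 0.277 and 0.285 at 3 h and between 0.273 and 0.291 at 6 h.

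NDE2 (YDL085W, chrIV:303211-304848, plus strand) had 2.27, 1.66 and 0.938 CPM at 0 h, 1.36, 1.07 and 1.25 CPM at 1 h, 1.20, 1.80 and 1.15 CPM at 3 h, and 6.55, 5.03 and 6.82 CPM at 6 h. The 3 libraries of 6 h lay above the other 9, which overlapped. It rose by 1.87 ± 0.26 at 6 h on the log2 scale (adjusted p = 3.2e-05), with 1.58 to 2.22 when single libraries were left out, and by 2.15 ± 0.26 against 3 h (adjusted p = 4.2e-05). Its level stayed small beside that of NDE1: the ratio per kb was between 0.0251 and 0.0393 at 6 h and between 0.00571 and 0.0119 at 0 h.

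NDE1 (YMR145C, chrXIII:554793-556475, minus strand) had 196, 189 and 169 CPM at 0 h, 174, 147 and 142 CPM at 1 h, 187, 183 and 176 CPM at 3 h, and 206, 206 and 178 CPM at 6 h. All later times overlapped 0 h. The log2 fold change of -0.26 ± 0.08 at 1 h (adjusted p = 0.0238) was not called without 0 h replicate 1, 1 h replicate 2 or 1 h replicate 3, nor under total counts (-0.05).

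CYB2 (YML054C, chrXIII:165533-167308, minus strand) had 7.94, 9.45 and 3.49 CPM at 0 h, 5.12, 5.46 and 3.65 CPM at 1 h, 5.54, 5.41 and 5.04 CPM at 3 h, and 13.0, 9.76 and 9.85 CPM at 6 h. The libraries of 6 h lay above all others, and 0 h replicate 3 was the lowest of the 12. Against 0 h the change at 6 h missed the threshold (0.63 ± 0.26, adjusted p = 0.0503), and against 3 h it passed (1.03 ± 0.26, adjusted p = 0.00755). The change at 6 h was 0.29 without 0 h replicate 3 (adjusted p = 0.167), and it was called without 0 h replicate 2 (0.85, adjusted p = 0.0200) and under total counts (0.92, adjusted p = 0.00595). Without 0 h replicate 3 CYB2 was called lower at 1 h (-0.91) and 3 h (-0.73).

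Between consecutive times, 1 member was higher and 14 lower at 3 h than at 1 h (40.0% lower), against 16.9% and 17.6% of all features. The 14 included 7 of the 9 complex III genes (COR1, QCR2, QCR6, QCR7, QCR10, RIP1 and CYT1), which had a median of -0.43 and, under total counts, of -0.31. Under total counts 9 of the 14 were lower: COR1, QCR2, QCR6, QCR7, COX4, COX6, COX8, TIM11 and NDI1. Of the 14 lower calls, 9 held without any one library (COR1, QCR2, QCR6, QCR7, RIP1, COX4, COX6, COX8 and TIM11) and 5 did not (QCR10, CYT1, ATP4, ATP18 and NDI1). The member that was higher was NDE1 (0.24 ± 0.08, adjusted p = 0.0454), which was not called in 7 of the 12 fits that left out a library.

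At 6 h against 3 h, 2 members were higher (NDE2 and CYB2) and 5 lower (QCR7, COX6, COX8, ATP5 and ATP20), against 21.0% and 21.7% of all features. All 7 calls were made under both scalings. COX6 was the single lower call that held without any one library (-0.33 ± 0.08, adjusted p = 0.00490), and without 3 h replicate 2 it was the only one.

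The regulator HAP4 had 362, 344 and 152 CPM at 0 h, 147, 110 and 93.4 CPM at 1 h, 111, 80.4 and 58.4 CPM at 3 h, and 102, 79.8 and 68.6 CPM at 6 h. All later libraries lay below those of 0 h, of which 0 h replicate 3 was lowest. The same order ran through every time, with replicate 1 highest and replicate 3 lowest, so it was not particular to 0 h. HAP4 fell by 1.29 ± 0.35 at 1 h (adjusted p = 0.0137), 1.79 ± 0.36 at 3 h (adjusted p = 0.00270) and 1.78 ± 0.36 at 6 h (adjusted p = 0.00190) on the log2 scale, and by 1.09, 1.47 and 1.49 under total counts, all called. The call at 1 h ended without 0 h replicate 1 (-1.09, adjusted p = 0.0542). Its partners HAP2 (0.06 ± 0.14 at 6 h) and HAP5 (0.07 ± 0.13) had no call at 6 h, where they were called higher under total counts (0.35 and 0.36), and HAP3 rose by 0.43 ± 0.10, 0.68 ± 0.10 and 0.35 ± 0.10 at 1, 3 and 6 h (adjusted p = 0.00237, 6.6e-05 and 0.00701).

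HAP1, the gene of a heme-responsive regulator, rose by 0.24 ± 0.06 at 1 h, 0.68 ± 0.06 at 3 h and 1.09 ± 0.06 at 6 h (adjusted p = 0.00624, 1.2e-06 and 5.1e-09). The change at 1 h was not called without 0 h replicate 2. Transcript counts do not show whether the HAP1 product was functional in BY4741. ROX1, a repressor of hypoxic genes, rose by 0.90 ± 0.12, 0.55 ± 0.12 and 0.67 ± 0.12 (adjusted p = 2.9e-05, 0.00175 and 2.3e-04). HXK2, the hexokinase with a part in glucose repression, fell by 0.45 ± 0.05, 0.52 ± 0.05 and 0.75 ± 0.05 (adjusted p = 8.4e-06, 2.0e-06 and 2.8e-08). Of the 11 regulators listed, 3 were higher and 3 lower than at 0 h at each of the 3 times (27.3% each way). Of all features, 24.5%, 26.3% and 33.0% were higher and 23.4%, 24.5% and 28.9% lower, so the list was called about as often as features at large. Under total counts 4, 3 and 5 of the regulators were higher and 3 lower at each time. Of all 5615 features, 2575, 3576 and 3278 were then higher and 602, 498 and 809 lower. The part of any regulator in the members' levels was not tested.

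**Figure D5:**
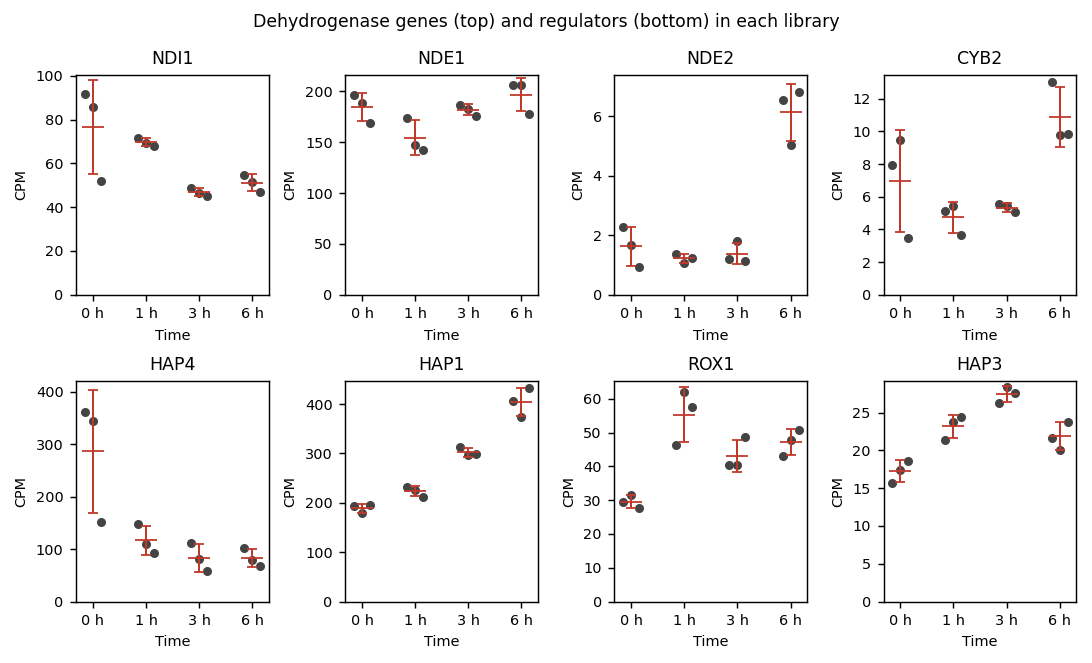
Points give CPM in each library and the red mark with bars gives the mean and SD of the 3 libraries of a time, for the 4 dehydrogenases (top) and 4 regulators (bottom). NDE2 is 5.03 to 6.82 CPM at 6 h and at most 2.27 before, HAP4 lies below its 0 h values from 1 h on, and the third library of 0 h is low for NDI1, NDE2, CYB2 and HAP4.

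The other components of the chain were set beside the members. All 4 succinate dehydrogenase (complex II) genes were lower at 3 and 6 h than at 0 h, with medians of -0.96 at both times. Of all features, 24.5% and 28.9% were lower. Under total counts 4 and 3 of these genes were lower, where 498 and 809 of all 5615 features were. SDH3 had 44.4, 41.0 and 44.8 CPM at 6 h against 109, 111 and 112 CPM at 0 h (-1.35 ± 0.07, adjusted p = 1.6e-09), with no low library at 0 h. SDH1 was called at 6 h (-0.71 ± 0.21, adjusted p = 0.0124), and neither without 0 h replicate 1 nor under total counts. SDH2 had -1.05 ± 0.23 (adjusted p = 0.00252) and SDH4 -0.86 ± 0.16 (adjusted p = 4.7e-04).

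CYC1, the main form of cytochrome c, had 45.5, 49.0 and 48.8 CPM at 0 h, 35.5, 38.6 and 36.6 CPM at 1 h, 17.9, 18.9 and 20.9 CPM at 3 h, and 5.04, 8.22 and 7.36 CPM at 6 h. It fell at each time without overlap, by 0.37 ± 0.11, 1.31 ± 0.11 and 2.80 ± 0.13 on the log2 scale (adjusted p = 0.0122, 6.9e-07 and 7.2e-10), and the change at 1 h was not called under total counts (-0.16). CYC7, the minor form, had 19.8, 18.8 and 15.5 CPM at 6 h against 11.3, 9.58 and 2.01 CPM at 0 h (1.20 ± 0.37, adjusted p = 0.0148), and 0.74 without 0 h replicate 3, where CYC7 was also called lower at 1 h (-0.76) and 3 h (-0.57). COX5A, the aerobic form of a complex IV subunit, was lower at 3 h (-0.26 ± 0.07, adjusted p = 0.00902) and 6 h (-0.54 ± 0.07, adjusted p = 2.2e-05), and its hypoxic counterpart COX5B had no call; without 0 h replicate 3 it was called lower at 3 h (-0.60, adjusted p = 5.0e-05) and 6 h (-0.24, adjusted p = 0.0334), and under total counts COX5A was not called at 3 h (0.08). GUT2, the glycerol-3-phosphate dehydrogenase, was higher at 6 h (0.84 ± 0.26, adjusted p = 0.0169, and 0.53 without 0 h replicate 3), and not without 6 h replicate 1.

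Of 6 tested mitochondrially encoded partners, 5 were higher at 6 h than at 0 h, where 33.0% of all features were. Under total counts 5 were higher too, where 3278 of all 5615 features were. Without 0 h replicate 3 there were 4, where 1760 of 5642 features were higher. The medians of the 6 were -0.23 at 1 h, -0.13 at 3 h and 0.71 at 6 h. COX1, a catalytic subunit of complex IV, had 282, 221 and 267 CPM at 6 h against 153, 121 and 180 CPM at 0 h (0.76 ± 0.22, adjusted p = 0.0119). COB, the cytochrome b of complex III, had 117, 140 and 172 CPM at 6 h against 85.0, 46.5 and 62.2 CPM at 0 h (1.14 ± 0.31, adjusted p = 0.00965). The 6 h libraries lay above those of 0 h for both. In the same libraries COX4, COX6 and CYT1 were below 0 h. COX3 (0.66 ± 0.23, adjusted p = 0.0320) and ATP6 (1.14 ± 0.38, adjusted p = 0.0239) were not called without some single libraries. Mitochondrial open reading frames took 0.552% to 0.647% of counts at 6 h and 0.271% to 0.389% at 0 h.

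Assembly factors were called in both directions, and the counts depended on the scaling. At 6 h, 33.0% of all features were higher and 28.9% lower than at 0 h. Under total counts 3278 of all 5615 features were higher and 809 lower. Without 0 h replicate 3, 1760 of 5642 features were higher and 1826 lower. Of 9 for complex III, 2 were higher and 4 lower at 6 h than at 0 h; CBP3 (-0.71 ± 0.09, adjusted p = 9.1e-06) and CBP4 (-0.72 ± 0.15, adjusted p = 8.3e-04) were among the lower, and under total counts 3 were higher and 2 lower. Of 30 for complex IV, 3 were higher and 14 lower at 6 h; COA2 had -0.95 ± 0.12 (adjusted p = 1.2e-05) and COA6 0.59 ± 0.10 (adjusted p = 2.4e-04). Under total counts 13 of these 30 were higher and 1 lower, and without 0 h replicate 3 there were 4 higher and 17 lower. Of 11 for the ATP synthase, 2 were higher and 6 lower at 6 h, and under total counts 4 were higher and 4 lower. ATP11, a chaperone of the beta subunit, had -0.63 ± 0.06 (adjusted p = 1.5e-06), and ATP22, which acts on translation of the ATP6 message, had 0.78 ± 0.08 (adjusted p = 1.5e-06).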

How the data were processed

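Total RNA of 12 yeast libraries was depleted of rRNA and sequenced as stranded libraries, per the labels' protocols. The deposited table holds raw whole-number counts per feature, made by the authors; build R64, STAR 2.5.2b and featureCounts 1.5.1 are listed, per the submitters' processing notes. For strand setting, annotation release and multiply aligned reads, nothing is given in the sources used here.

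The quasi-likelihood test of edgeR 4.0.16 (R 4.3.3, robust fit, 8 residual degrees of freedom) was run on the counts, with its filter on low counts (5615 of 6216 features kept, all 35 members among them) and TMM scaling. All 12 libraries entered the fit, with time as the factor, and the Benjamini-Hochberg adjustment ran over all tested features of a comparison, at a threshold of 0.05. CPM used TMM-adjusted totals. An SE is the absolute log2 fold change over the square root of F. The steps were tested on simulated data. There a small part of the features changed, with rises and falls drawn alike, so the choice of scaling was not tested. No library was a copy of another: pairs within a time had chi-square values of 3.23 to 31.7 per degree of freedom, and totals within 1.5-fold gave similar counting precision.

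Values in every library are given for the 2 members of each complex with the largest change past the threshold against 0 h, for the 4 dehydrogenases and for INH1. Further members are the 3 largest rises and falls past the threshold in a complex and comparison, and of each gene list up to 4 genes with the largest changes, with HAP1 to HAP5 and ROX1 whatever their values. COX5B, ATP1 to ATP3 and the uncalled members were named after their values were seen. Members and lists were chosen with earlier results of these data known. Coordinates, upstream stretches and coding lengths come from the RefSeq annotation and genome of R64, counted from 1, and copies were sought with blastn 2.17.0 (95% identity over 50% of the length). Alternatives were size factors of DESeq2 1.42.0, its Wald test, total counts, nuclear frames alone, 2 other filters, fits of the 2 times compared alone, and each library left out. A replicate block was added after the files were seen.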

Additional observations from a re-analysis of the deposited data

How the results depend on the processing

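Counts against 0 h rest on the scaling and on single libraries of 0 h. Under total counts the members' medians were 0.19, 0.16 and 0.14 at 1, 3 and 6 h, beside 0.21, 0.35 and 0.34 for all features. Then 17, 17 and 16 members were higher and 1, 2 and 6 lower. Of all 5615 features, 2575, 3576 and 3278 were higher and 602, 498 and 809 lower. At 3 h against 1 h 3 members were higher and 9 lower, where 1734 features were higher and 552 lower. With only the 2 times compared, 1 was lower at 1 h, 1 was higher at 3 h and 4 were higher at 6 h against 3 h. DESeq2 called 1 higher at 3 h. At 3 h against 1 h, 0 were higher with its size factors or with nuclear frames alone; NDE1 had been the call. The filter of 10 CPM in 3 libraries removed NDE2 and left 1 higher at 6 h against 3 h. Other causes were not tested. The called changes of ATP15, ATP20, COX4, COX6, CYT1, NDE1, NDE2, NDI1 and QCR7 against 0 h were followed under the alternatives. Of these results, 344 kept their side of the threshold and 15 lost it. Most of these genes were chosen for large called changes, and many alternatives left out a library of neither time compared. A high count kept was thus likely in advance and does not measure robustness. Under total counts the 1 h calls of COX6 and NDE1 and the 3 h calls of QCR7, CYT1 and NDI1 ended. The 6 h calls of NDI1 and ATP20 ended there too. Outside these genes, ATP2 at 3 h turned from lower (-0.17) to higher (0.16) under total counts. Of the members' counts and medians, 279 stayed and 40 moved. A count stayed if it kept within 1.5-fold, and a median if it shifted by less than 0.15 on the log2 scale. That margin is near the size of the medians against 0 h (-0.02, -0.17 and -0.15), so a median that stayed could still be close to 0.

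Without single libraries, higher calls against 0 h were 3 to 5, 1 to 2 and 3 to 4 by time, with 0 to 1 for 3 h against 1 h and 2 to 3 for 6 h against 3 h. Lower calls in the same order were 2 to 9, 10 to 21, 13 to 18, 10 to 15 and 1 to 6. Medians were -0.11 to 0.01, -0.23 to -0.12, -0.21 to -0.12, -0.20 to -0.13 and 0.01 to 0.04, and the F test called 20 to 28.

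The file's header gives each library a letter, which the labels do not. Deviations of libraries with the same letter correlated at 0.24 to 0.46 for A, -0.08 to 0.07 for B and 0.27 to 0.45 for C. Libraries of A and of C thus shared deviations across times, above 0.1 in every pair of times, and those of B did not. The main fit has no replicate term and leaves this shared part out. With the letters as a replicate block, 6, 2 and 4 members were higher and 5, 13 and 15 lower than at 0 h by time, with 1 higher and 16 lower at 3 h than at 1 h, and 3 higher and 5 lower at 6 h than at 3 h.

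Counting error weighs most on NDE2 and CYB2, the members with the fewest counts.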

Other observations

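Genes around the inner membrane also differed between 6 h and 0 h. Of 12 mitochondrial import and carrier genes, 2 were higher and 9 lower, against 33.0% and 28.9% of all features. Under total counts 3 were higher and 5 lower, where 3278 of all 5615 features were higher and 809 lower. TOM70, an import receptor, had 155, 153 and 152 CPM at 6 h against 301, 293 and 296 CPM at 0 h (log2 fold change -0.95 ± 0.05, adjusted p = 3.4e-09). TIM50 (-0.76 ± 0.05, adjusted p = 2.0e-08) and TOM20 (-0.66 ± 0.05, adjusted p = 1.2e-07) were lower too. POR1, the outer membrane channel, had 1293, 1313 and 1299 CPM at 6 h against 810, 809 and 781 at 0 h (0.70 ± 0.04, adjusted p = 3.2e-09).

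Of 10 ubiquinone synthesis genes, 4 were higher at 1 h than at 0 h, with COQ1 (0.50 ± 0.08, adjusted p = 1.5e-04) and COQ4 (0.51 ± 0.08, adjusted p = 1.5e-04) among them, against 24.5% of all features. At 6 h 3 of the 10 were higher and 3 lower, near the 33.0% and 28.9% of all features. Under total counts 9 were higher at 1 h, and at 6 h 6 were higher and 0 lower. Of all 5615 features, 2575 were then higher at 1 h, and 3278 higher and 809 lower at 6 h. Without 0 h replicate 3 there were 2 higher at 1 h, and 1 higher and 5 lower at 6 h. In that fit 1317 of 5642 features were higher at 1 h, and 1760 higher and 1826 lower at 6 h. The factors RCF1 and RCF2, associated with complexes III and IV, differed in direction at 6 h. RCF1 had 12.2, 12.2 and 14.0 CPM against 24.3, 23.1 and 20.6 CPM at 0 h (-0.83 ± 0.10, adjusted p = 6.9e-06), and RCF2 had 193, 236 and 231 CPM against 147, 151 and 151 CPM (0.56 ± 0.07, adjusted p = 9.7e-06). No explanation of these values was tested.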
